A study of Homo sapiens with 2 samples.

Results

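The strong DMSO-only peaks are the 551 ATAC-seq peaks on chromosomes 1 to 22 that reached at least 1 RPM in the DMSO library of G401 cells and shared no base with any peak of the MAK683 library. They were chosen by 2 measured values, the height of the DMSO peak and the absence of a MAK683 call over the same bases, so both of these are descriptions of the set and carry no test. RPM is the number of tags stacked at the highest point of a peak, its summit, scaled to 1000000 tags kept by the peak caller. The 551 members were 2.26% of the 24414 DMSO peaks that passed the height limit (95% Wilson interval 2.08 to 2.45), and those were in turn part of 111987 DMSO peaks on the same chromosomes. In the opposite direction 867 of 17536 MAK683 peaks of at least 1 RPM (4.94%) shared no base with a DMSO peak.

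G401 is an established cell line, derived from a rhabdoid tumor of the kidney, that lacks SMARCB1, a core subunit of the SWI/SNF chromatin remodeler. The cells received either the solvent DMSO or 3 µM MAK683, an inhibitor that binds the EED subunit of PRC2, and chromatin was taken after 3 days. Each treatment had 1 library, so every interval here covers counting error alone and no difference between treatments was tested. The peak caller kept 16598348 tags for DMSO and 18265284 for MAK683, which makes 1 tag worth 0.0602 RPM and 0.0547 RPM.

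PRC2 places methyl groups on lysine 27 of histone H3 and keeps genes silent, whereas SWI/SNF moves nucleosomes and opens chromatin, and the loss of SMARCB1 leaves a cell dependent on PRC2. ATAC-seq reads out open chromatin, since the transposase inserts adapters where DNA is free of nucleosomes, mostly at promoters, enhancers and sites bound by the insulator protein CTCF. Removal of PRC2 activity is known above all for opening silenced genes, and the peaks described here are the other side of that comparison, places called open with the solvent and not called with the inhibitor.

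The sequences below were read from the plus strand of GRCh37 (hg19), 200 bases around the summit, for the tallest members that held each of 4 transcription factor motifs and for a promoter member with a GC box. All lie off annotated untranslated regions, and capitals mark the motif match on either strand. The NANOGP8-nearest and AMD1 members lie over 3 kb from the main start site of any gene. The HMGA2-nearest, SPAG6-nearest and INPPL1 members lie within 3 kb of such a site.
HMGA2-nearest member, CTCF motif, chr12:65950576-65950775: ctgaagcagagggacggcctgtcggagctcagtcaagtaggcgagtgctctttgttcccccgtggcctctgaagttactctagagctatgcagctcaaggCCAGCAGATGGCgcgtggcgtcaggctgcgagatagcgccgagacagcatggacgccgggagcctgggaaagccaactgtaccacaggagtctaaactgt
NANOGP8-nearest member, homeobox motif TAATTA, chr15:35476882-35477081: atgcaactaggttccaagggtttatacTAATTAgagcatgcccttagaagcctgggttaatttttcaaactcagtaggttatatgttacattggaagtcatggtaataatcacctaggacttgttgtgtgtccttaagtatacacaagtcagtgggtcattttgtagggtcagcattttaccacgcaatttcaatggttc
AMD1 intron member, forkhead motif TGTTTAC, chr6:111200397-111200596: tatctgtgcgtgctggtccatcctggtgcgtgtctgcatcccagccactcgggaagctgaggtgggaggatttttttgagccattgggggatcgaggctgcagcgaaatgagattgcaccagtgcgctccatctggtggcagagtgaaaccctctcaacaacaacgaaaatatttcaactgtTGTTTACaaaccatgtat
SPAG6-nearest member, TEAD motif GGAATG in reverse complement, chr10:22633204-22633403: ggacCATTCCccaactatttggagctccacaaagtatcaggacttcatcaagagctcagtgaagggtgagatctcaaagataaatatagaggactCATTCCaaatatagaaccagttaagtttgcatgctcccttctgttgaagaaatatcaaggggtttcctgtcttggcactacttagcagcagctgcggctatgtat
INPPL1 intron member near the start site, GC box GGGCGG, chr11:71936569-71936768: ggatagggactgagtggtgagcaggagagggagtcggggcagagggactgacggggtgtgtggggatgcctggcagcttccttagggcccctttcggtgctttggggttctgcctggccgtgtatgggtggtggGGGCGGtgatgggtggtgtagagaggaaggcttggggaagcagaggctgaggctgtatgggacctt

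All members were low peaks for their class. Their heights ran from 17 to 29 tags (1.02 to 1.75 RPM), the median was 18 tags, and 358 of them (65.0%) had 17 or 18 tags. At 17 tags 210 of 2110 DMSO peaks had no MAK683 peak, 9.95% (8.75 to 11.3), and at 18 tags it was 148 of 1868, 7.92% (6.78 to 9.24). The share went down to 2.85% at 21 tags (36 of 1261) and to 0.479% at 29 tags (3 of 626). Above 29 tags all 9710 DMSO peaks overlapped a MAK683 peak. Only 23 members had 24 tags or more. A height of 17 tags has an exact binomial interval of 0.597 to 1.64 RPM, so the heights of most members could not be told apart at this depth. Since height chose the set, the fall in share with height is a description.

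The height limit fell on a tie. Just inside it stood the 210 members with 17 tags (1.02 RPM), and just outside it 308 DMSO peaks with 16 tags (0.964 RPM) that also had no MAK683 peak. In MAK683 the lowest called peak had 6 tags (0.328 RPM). The files hold no MAK683 height where no peak was called, so the size of the difference at a member is not known.

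**Figure D1:**
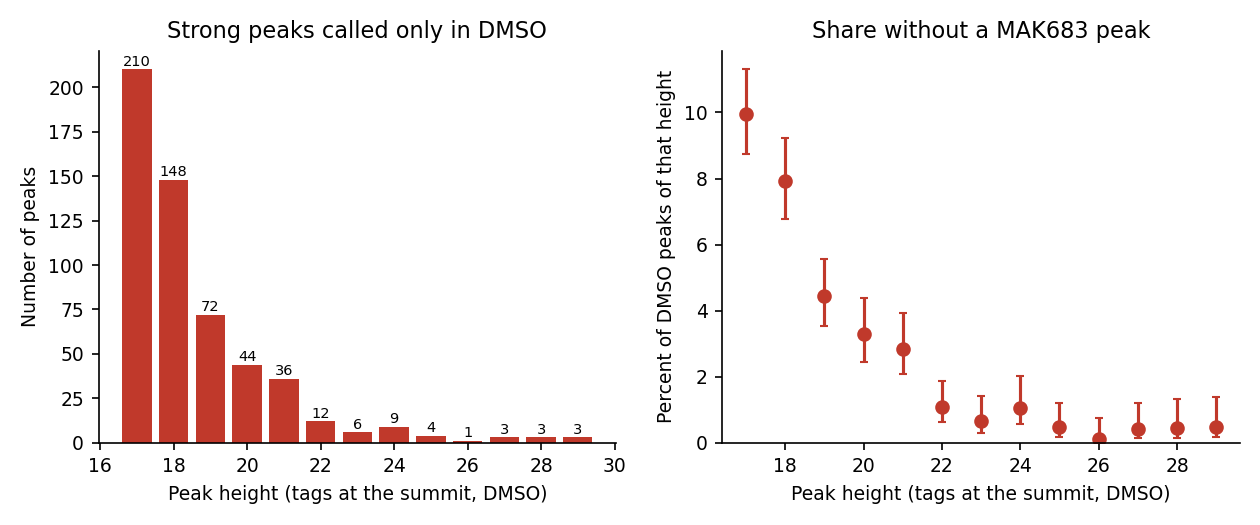
Left, number of members (bars, counts above them) by height in DMSO tags at the summit. Right, percent of all DMSO peaks of each height with no MAK683 peak, with 95% Wilson intervals: the share was 9.95% at 17 tags and 0.479% at 29 tags.

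Members were narrow. Their median length was 590 bp (95% interval of the median 556 to 626, quartiles 407.5 to 862, range 222 to 2321), and 452 of 551 were shorter than 1 kb. The 14153 shared DMSO peaks of the same height range, 17 to 29 tags, had a median length of 1195 bp, and the 867 strong MAK683-only peaks one of 1127 bp. Of all strong DMSO peaks under 500 bp, 214 of 1050 were members (20.4%, 18.1 to 22.9), against 4 of 7610 at 2 kb or longer (0.0526%). A short interval has fewer bases with which to meet another peak, so length enters the rule itself and is given as a description. Shared peaks weighted to the tags of the members had a median length of 1001 bp, which left most of the gap in length in place at equal height. The longest members were 2321 bp in an intron of a noncoding gene 9401 bp downstream of the NFE2 start site, 2261 bp in an intron of TMEM201, 2160 bp in the HACE1 region, 2092 bp in the KCNH7 region and 1977 bp in an intron of ZNF827. These 5 long members had 17 to 19 tags, so they were wide and low.

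**Figure D2:**
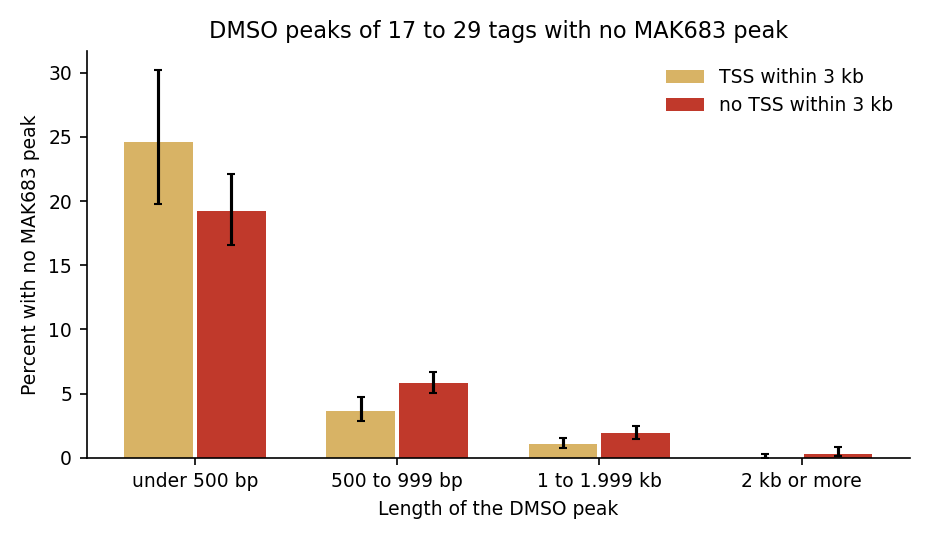
Percent of DMSO peaks of 17 to 29 tags with no MAK683 peak by peak length, split by whether a transcription start site (TSS) lies within 3 kb. Bars are percentages and lines 95% Wilson intervals: peaks under 500 bp stood at 24.6% near a TSS and 19.2% away from one, and peaks of 2 kb or more at 0% and 0.326%.

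Most members lay close to a MAK683 peak without touching it. The median gap to the nearest MAK683 peak was 1628 bp (1318 to 1957), with quartiles of 493.5 and 6113.5 bp. A MAK683 peak stood within 1 kb of 224 members (40.7%), within 10 kb of 449 (81.5%) and beyond 50 kb of 6. For strong MAK683-only peaks the median gap to a DMSO peak was 26180 bp, and 6.81% had one within 1 kb. The 48669 DMSO peaks under 1 RPM with no MAK683 peak had gaps much like those of the members, with a median of 1830 bp and quartiles of 533 and 6115 bp. They were shorter, with a median length of 290 bp against 590 bp for the members. The closest case was a member in an intron of VCL, which encodes the adhesion protein vinculin, 3 bp from a MAK683 peak of 10 tags. The farthest was a member of 485 bp in a coding exon of UNC13B, 95961 bp from the nearest MAK683 peak.

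The 224 members with a MAK683 neighbour within 1 kb sat in crowded stretches of open chromatin. Of these, 213 (95.1%) also had another DMSO peak within 1 kb, against 128 of the 327 remaining members (39.1%). In 196 of the 224 (87.5%) the neighbouring MAK683 peak overlapped another DMSO peak. The neighbouring MAK683 peaks had 6 to 54 tags, with a median of 11, and 172 of the 224 members were taller in RPM than that neighbour. Whether members of this kind lost a separate site or the edge of a wider open stretch cannot be told apart from peak lists.

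The 327 members with no MAK683 peak within 1 kb stood more on their own. Their median length, 590 bp, and median height, 18 tags, matched those of the others. Among them was a pair in an intron of RERE, a nuclear receptor corepressor, in which chr1:8786227-8787539 and chr1:8787658-8788857 had 17 tags each and were separated by 119 bp. A TSS lay within 3 kb of 23.5% of the 327 (19.3 to 28.4) and of 36.2% (30.1 to 42.6) of those next to a MAK683 peak. A CTCF motif occurred in the 200 bases around the summit in 42 of 327 (12.8%, 9.64 to 16.9) and in 10 of 224 (4.46%, 2.44 to 8.02). A stricter group of 102 members with no MAK683 peak within 10 kb had a CTCF motif in 15 (14.7%, 9.12 to 22.9).

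**Figure D3:**
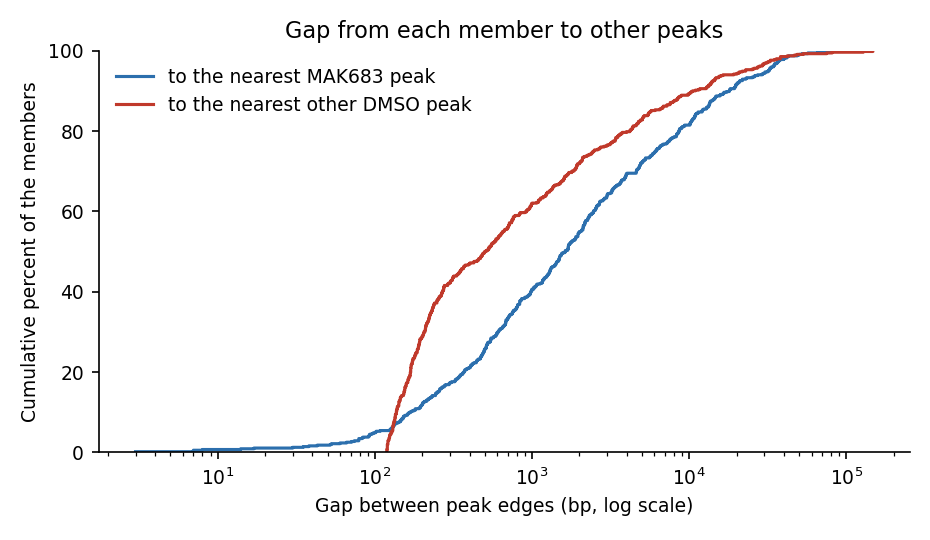
Cumulative percent of the 551 members by the gap between peak edges (bp, log axis) to the nearest MAK683 peak (blue) and to the nearest other DMSO peak (red). The medians were 1628 bp and 503 bp.

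The 10 tallest members were mostly intronic or intergenic, and 2 of them had the summit within 1 kb of a start site, 1 of a noncoding and 1 of a protein-coding gene. With 29 tags (1.75 RPM, exact interval 1.17 to 2.51) the first was chr6:111200133-111200899, in an intron of AMD1, which encodes an enzyme of polyamine synthesis, 4508 bp downstream of its TSS. Its nearest MAK683 peak, 2167 bp away, had 20 tags. The second with 29 tags, chr12:65950249-65951610, had its summit 30 bp from the TSS of a long noncoding RNA gene, and the nearest protein-coding TSS was that of HMGA2, a chromatin architectural protein, 267588 bp away. The other member with 29 tags, chr15:35476104-35477254, lay in an intron of a noncoding gene 99485 bp upstream of NANOGP8, a retrocopy of the stem cell factor NANOG, and 16587 bp from a MAK683 peak.

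Members with 28 tags lay in 3 places. One was in the HACE1 region, one in an intron of MESD, a chaperone of WNT coreceptors, and one in an intron of BICRA, a subunit of a noncanonical SWI/SNF complex. The MESD member carried both a CTCF and a homeobox match. At 27 tags stood a member 1122 bp upstream of SPAG6, which encodes a protein of the sperm flagellum, a member in a noncoding exon 201811 bp downstream of the start of EXOC5, an exocyst subunit, and the promoter member of RDM1. The last of the 10, with 26 tags, lay 19312 bp downstream of the TSS of COPZ2, a coat protein subunit of Golgi vesicles. None of these 10 touched a MAK683 peak by construction, and their gaps to one ran from 683 to 16587 bp.

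Members were found less often at promoters than shared peaks of their height. Each gene was counted with 1 main TSS, so peaks at its other start sites can count as away from a TSS. A TSS of any gene lay within 3 kb of 158 members (28.7%, 25.1 to 32.6), of 44.7% (43.9 to 45.5) of the 14153 shared peaks and of 30.9% (27.9 to 34.1) of the strong MAK683-only peaks. The summit was within 1 kb of a protein-coding TSS in 34 members (6.17%, 4.45 to 8.50), against 21.6% of shared peaks and 10.2% of MAK683-only peaks. Shared peaks weighted to the tags of the members had a TSS within 3 kb in 36.9%, those weighted to their lengths in 32.1% and those weighted to their GC content in 32.0%, the latter values inside the interval of the members. For summits within 1 kb of a protein-coding TSS the weighted shares were 13.3% by tags, 12.1% by length and 8.98% by GC content, the last just above the upper bound of the members. The weightings were chosen after the data had been seen.

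Members lay in gene bodies more often than either comparison set. The summit was inside a protein-coding gene in 374 of 551 (67.9%, 63.9 to 71.6), against 55.4% (54.6 to 56.2) of shared peaks and 48.9% (45.6 to 52.2) of MAK683-only peaks. Weighting the shared peaks to the tags or the lengths of the members gave 57.1% and 53.6%. By annotation, 335 members (60.8%) were intronic, 132 between genes, 34 in untranslated regions, 27 in noncoding exons and 23 in coding exons. The intervals were 56.7 to 64.8% for introns and 20.6 to 27.7% for places between genes, where shared peaks had 47.2% and 32.8%. The summit lay downstream of the nearest protein-coding TSS in 369 members (67.0%, 62.9 to 70.8) and in 53.3% of shared peaks. Members exceeded shared peaks at each step from 1 to 100 kb past the TSS. At the middle steps 77 members lay at 3 to 10 kb (14.0% against 8.62%) and 98 at 10 to 30 kb (17.8% against 11.96%). Just upstream of the TSS, within 1 kb, were 16 members (2.90%) and 14.5% of shared peaks.

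**Figure D4:**
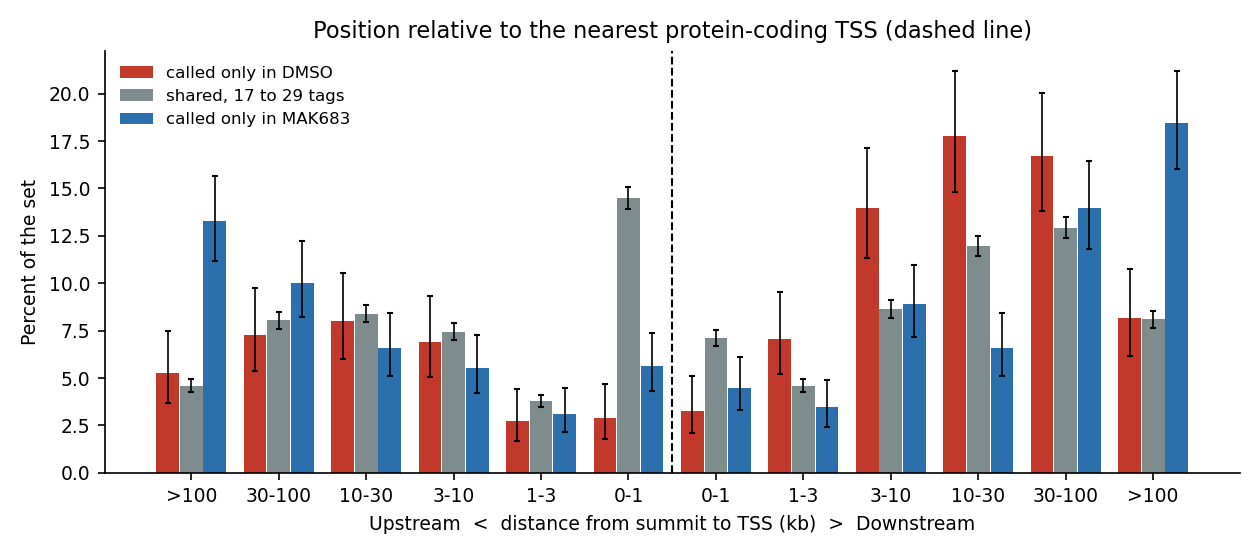
Percent of the members (red), of the shared DMSO peaks of 17 to 29 tags (grey) and of the strong MAK683-only peaks (blue) by distance in kb from the summit to the nearest protein-coding TSS, upstream to the left and downstream to the right of the dashed line, with 95% Wilson intervals. Members were 2.90% within 1 kb upstream, where shared peaks were 14.5%, and 17.8% at 10 to 30 kb downstream, where shared peaks were 11.96%.

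The median distance from a member to a protein-coding TSS was 17391 bp (15022 to 21566), between the 12489 bp of shared peaks and the 42598 bp of MAK683-only peaks. Beyond 100 kb lay 74 members (13.4%), 12.7% of shared peaks and 31.7% of MAK683-only peaks. The nearest TSS of any class belonged to a protein-coding gene for 242 members (43.9%), to a long noncoding RNA gene for 166 (30.1%), to a pseudogene for 70 (12.7%) and to another class for 73 (13.2%). Members had a median of 10 protein-coding TSSs within 500 kb, close to the 11 of shared peaks and above the 5 of MAK683-only peaks.

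The promoter members were few and low. RDM1, a gene related to the recombination factor RAD52, had the tallest, 27 tags at 34 bp upstream of its TSS, with the next MAK683 peak of 7 tags at 703 bp. NSRP1, a splicing regulator, had 24 tags at 440 bp into the gene, 84 bp from the start of the microRNA gene hsa-mir-423. INPPL1, a lipid phosphatase of insulin signalling, had 23 tags at 857 bp. GINS2, a subunit of the replicative helicase, and PAK4, a serine/threonine kinase, had 21 tags each. CDKAL1, UAP1L1 and GNA11, a G protein alpha subunit, had 20 tags each. A tie of 7 promoters followed at 19 tags, those of MED13, NACC1, QSOX2, COG4, SBK2, TIFAB and LRRD1. At LRRD1 and COG4 the nearest MAK683 peak was 42832 and 40365 bp away, while at MED13, a Mediator subunit, it was 130 bp away. Away from coding genes, and chosen after the values were seen, a member with 24 tags had its summit 31 bp from the start of MIR143, with a MAK683 peak of 9 tags at 74 bp. Summits within 1 kb of a microRNA gene numbered 5 of 551 (0.907%, 0.388 to 2.11), against 0.692% of shared peaks.

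The members were scattered over many genes. Their 374 intragenic summits fell in 347 protein-coding genes, of which 23 held at least 2 members and 4 held 3. PWWP2A, a reader of the histone variant H2A.Z, was the most compact of the 4, with 3 of its 8 strong DMSO peaks among the members within 57.7 kb of gene. The others were long genes. LSAMP, a cell adhesion gene, had 3 of 40, SLC8A1, a sodium-calcium exchanger, 3 of 24, and RERE 3 of 13. Of the genes with 2, the tallest members (25 tags) were in KDM4C, a histone H3 lysine 9 demethylase, in MACF1, a linker of actin and microtubules, and in PKIB, an inhibitor of protein kinase A. COL11A1, a fibrillar collagen, IQCH and TMEM165 followed with 23, 22 and 21 tags. The KDM4C member of 25 tags was isolated, 25197 bp from a MAK683 peak and 127958 bp from any other DMSO peak.

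Along the genome most members stood outside groups. Their spacing was not compared with that of other peaks or of a random placement, so the degree of clustering was not tested. Groups of at least 3 members with gaps of at most 100 kb numbered 5 and held 16 members. Another member lay within 100 kb of 120 members (21.8%), within 10 kb of 27 and within 1 Mb of 321 (58.3%), and the median gap to the next member was 745617 bp. Per chromosome the members were between 1.34% (8 of 599, chromosome 20) and 3.12% (43 of 1379, chromosome 17) of the strong DMSO peaks. The Wilson intervals of these 2 chromosomes, picked as the lowest and the highest, were 0.678 to 2.61 and 2.32 to 4.17. Whether the shares differed between chromosomes was not tested. On chromosome X 1 of 505 strong DMSO peaks had no MAK683 peak.

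The group with the most members was chr6:104918007-105024496, between genes and 283646 to 389520 bp downstream of the start of HACE1, a ubiquitin ligase. Its 4 members had 18, 19, 18 and 28 tags, and were 4 of 17 strong DMSO peaks there. Over these 106.5 kb 53 DMSO peaks and 28 MAK683 peaks of any height were called, and each of the 4 had a MAK683 peak within 1 kb. The densest was chr2:164031804-164039258, 3 members of 17 tags within 7.46 kb, 336677 to 343790 bp upstream of the potassium channel gene KCNH7. Here 3 of 4 strong DMSO peaks were members, and 5 DMSO peaks stood against 1 MAK683 peak. In the PWWP2A introns, chr5:159491363-159523880, 3 of 7 strong peaks were members, with 21, 17 and 21 tags, 17 DMSO peaks stood against 9 MAK683 peaks, and none of the 3 had a MAK683 peak within 1 kb. The remaining groups were 3 of 10 strong peaks over 78.3 kb at VCL on chromosome 10 and 3 of 9 over 168.2 kb at PPP1R15B, PIK3C2B and MDM4 on chromosome 1. PPP1R15B encodes a regulatory subunit of the phosphatase that acts on eIF2 alpha, PIK3C2B a lipid kinase and MDM4 an inhibitor of p53.

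Gene by gene, members were assigned to 498 genes by the gene body that held the summit or otherwise the nearest protein-coding TSS. The counts in lists of related genes are small and are read against the 2.26% that members made up of all strong DMSO peaks. The list of PRC2 targets and of genes the study describes as activated by the inhibitor had 19 strong DMSO peaks and 0 members, which by the Wilson interval allows a share up to 16.8%. There were also 0 members among the 22 strong peaks of AP-1 factor genes, the 25 of kidney progenitor genes and the 46 of cadherins and protocadherins. The study chose the first of these lists on this cell line, so it is not independent of these samples.

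Signalling genes had a handful of members. Of the genes of the Hippo pathway, which restrains the coactivator YAP, TEAD1, CCN2 and AMOTL2 had 1 member of 17 tags each, 3 of 49 strong peaks (6.12%, 2.104 to 16.5). The CCN2 member, upstream of a secreted matrix protein that YAP activates, was 2189 bp from the TSS and 444 bp from a MAK683 peak. Those of TEAD1 and AMOTL2 lay outside the genes, 74719 bp upstream and 56978 bp downstream of the TSS. WNT genes had 2 of 98, in introns of TCF7L2 and CTNNB1, the DNA-binding partner and the coactivator of the pathway. The TGF-beta and BMP list had 1 of 128, in the signal transducer SMAD3. Growth factor genes had 2 of 120, in an intron of FGF20 and 65505 bp upstream of the IGF1R TSS.

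Developmental and matrix genes followed the same pattern. Neural crest and mesenchymal transcription factors had 4 members of 109 strong peaks (3.67%, 1.44 to 9.06). Of these, 2 with 18 and 21 tags lay 824844 and 1028309 bp upstream of the nuclear receptor gene NR2F1. The others, of 17 tags, lay 4328 bp upstream of the MEIS2 TSS and 297169 bp downstream of the ETS1 TSS, outside the gene. Matrix genes had 5 of 159, of which 3 with 23, 19 and 17 tags were at COL11A1, the last 92549 bp upstream of its TSS. In introns of the integrin subunit ITGB1 and of COL18A1, the precursor of endostatin, lay 1 each of 19 tags. Axon guidance genes had 3 of 109, at EPHA2 with 20 tags and at NTN5 and SEMA4B with 17. HOX genes had 2 of 65, in introns of HOXC8 (18 tags) and HOXA3 (17 tags). Potassium channel genes had 6 of 115 (5.22%, 2.41 to 10.9), of which 3 were the KCNH7 group. Another 2, with 21 and 17 tags, lay 211140 and 153612 bp upstream of KCNJ16. The last, with 22 tags, lay 306647 bp downstream of the KCNU1 TSS.

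Chromatin, cell cycle and housekeeping genes had few as well. SWI/SNF subunits had 2 of 41, BICRA with 28 tags and ARID1B, a DNA-binding subunit, with 18. DNA replication and mitosis genes had 3 of 68, GINS2 and the ribonucleotide reductase subunit RRM2 with 21 tags each and the cyclin CCNA2 with 18. Cytosolic ribosomal protein genes had 2 of 150, RPL34 and RPS12 with 17 tags each. ZNF genes had 6 of 554 (1.08%, 0.497 to 2.34), at heights of up to 19 tags in ZNF76 and near ZNF608. Olfactory receptor genes had 1 of 72, near OR13C7. The Wilson interval of every list given here with a member held the background of 2.26%, except that of the potassium channels. It began at 2.41% and rests on the KCNH7 group for 3 of its 6 members. All 6 lay outside the channel genes they were assigned to, the closest 153612 bp from the TSS.

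The sequence under the members was poorer in G and C than that of shared peaks. Over 200 bases around the summit the median GC content was 49.5% (48.5 to 50.5), against 57.5% in shared peaks and 52.5% in MAK683-only peaks. The median number of CpG dinucleotides was 2, 5 and 3. The difference from shared peaks was present away from TSSs (48.5% against 53.5%) and within 3 kb of one (52.75% against 63.0%). Equal height left it at 49.5% against 55.0%. With all strong DMSO peaks ordered by GC content and cut into 5 bins, members were 6.25% of the lowest bin (314 of 5024) and 0.373% of the highest (18 of 4830). In a window of 100 kb the GC content of the members was 43.7%, between 46.1% for shared peaks and 41.7% for MAK683-only peaks, and from the lowest to the highest of 5 such bins the share of members went from 3.11% to 1.74%. The gradient was thus steeper at the peak itself than in its surroundings, but these bins were not matched for height. They also hold the 9710 DMSO peaks above 29 tags, all of them shared. With those included, shared peaks had a median GC content of 61.0% at the summit and 45.2% over 100 kb.

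Motif matches were compared among peaks over 3 kb from the main TSS of any gene, 393 of them members. Other start sites of a gene were not counted. A match is a run of letters on either strand and not proof of binding, and none of the motifs given here contains another. CTCF motif matches were at 10.4% (7.78 to 13.9) of members, 9.77% of shared peaks and 2.84% of MAK683-only peaks. Weighted to the lengths of the members the shared peaks stood at 14.6%, above the interval of the members, and weighted to their GC content at 7.93%. AP-1 matches (TGANTCA) were at 6.62% of members (4.55 to 9.52) and 6.26% of shared peaks. TEAD matches were at 11.7% and 13.3%, RUNX matches (TGTGGT) at 14.2% and 14.0%, and GATA matches (AGATAA) at 5.34% and 5.52%. In these 4 cases the unweighted value of shared peaks fell inside the interval of the members. Weighted to the GC content of the members, the shared peaks held a GATA match in 8.15%, just above the interval of the members (3.52 to 8.03).

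The homeobox core TAATTA stood higher, at 19 of 393 members (4.83%, 3.12 to 7.43) against 1.90% (1.62 to 2.23) of shared and 1.17% of MAK683-only peaks. The forkhead motif TGTTTAC was at 17 of 393 (4.33%, 2.72 to 6.82) against 2.45% (2.13 to 2.82) of shared peaks. Both motifs are rich in A and T. They are among 12 motifs searched, and no allowance was made for that number. Shared peaks weighted to the GC content of the members held TAATTA in 2.87% and TGTTTAC in 3.22%, the first just below the interval of the members and the second inside it. The GC box GGGCGG, a promoter element, was at 8.91% (6.47 to 12.1) against 13.5%. At equal GC content the shared peaks had 6.59%, inside the interval of the members.

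**Figure D5:**
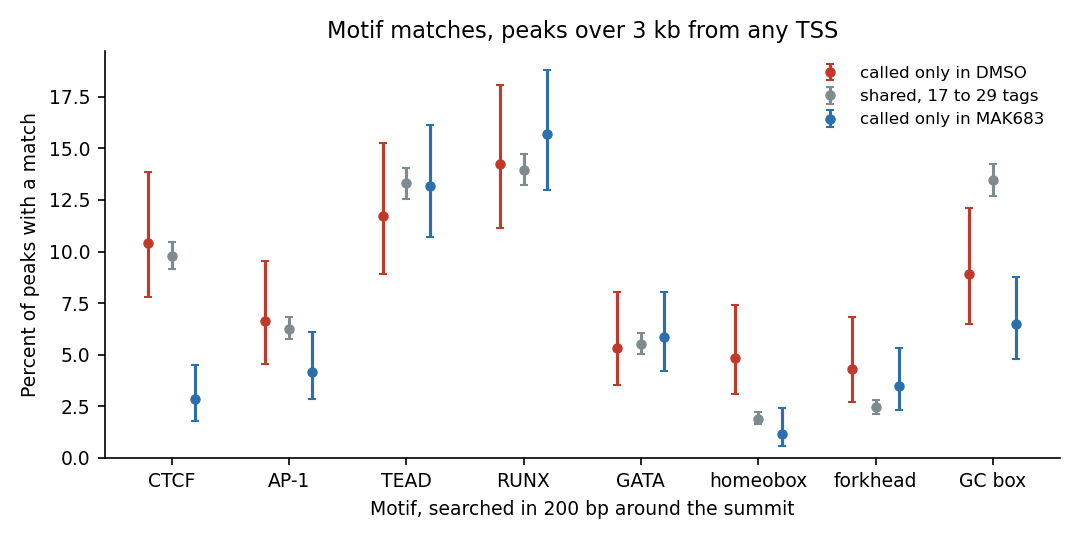
Percent of peaks over 3 kb from the main TSS of any gene with a motif match in 200 bp around the summit. Members are red, shared DMSO peaks of 17 to 29 tags grey and strong MAK683-only peaks blue, with 95% Wilson intervals. CTCF was at 10.4% of members and 2.84% of MAK683-only peaks, and the homeobox core at 4.83% and 1.17%.

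Open chromatin around the members was also lower with MAK683. A shared region is a stretch where peaks of both libraries overlap, and its log2 ratio is that of the MAK683 height over the DMSO height in RPM. The median ratio was -0.46 in the 7002 shared regions within 100 kb of a member and -0.53 in the 1150 within 10 kb, against -0.33 over all 56828 shared regions. Within 100 kb of a shared strong DMSO peak of 17 to 29 tags it was -0.37 in 47982 regions, of which 79.3% were below 0. Ratios were below 0 in 86.4% of regions within 100 kb of a member, 90.8% within 10 kb and 76.2% of all. Within 100 kb of a strong MAK683-only peak the median was 0.10. With no depth scaling the median within 100 kb of a member was -0.32, and over all shared regions -0.19. Among regions of at least 17 DMSO tags, which are picked for height in DMSO, the medians were -0.61 within 100 kb of a member and -0.53 overall. These ratios come from the same 2 libraries as the choice of the members, and so describe the set and do not support it.

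Fewer MAK683 than DMSO peaks were called around the members. Within 50 kb of a member the medians were 17 DMSO peaks and 11 MAK683 peaks. Around shared peaks they were 16 and 14, and around MAK683-only peaks 1 and 16. The DMSO count includes the member itself and the rule excludes a MAK683 peak over it, so the rule partly fixes these counts. The reverse holds for MAK683-only peaks. Both libraries together had 276190 peaks, of which 111987 were DMSO peaks on chromosomes 1 to 22. The genes of members over 3 kb from a protein-coding TSS mostly had open promoters: 380 of these 415 genes (91.6%) had a DMSO peak at the promoter, against 74.0% of all protein-coding genes. Where both libraries had one, the median log2 ratio of the promoter peak was -0.56 for the genes of the members and -0.46 for all protein-coding genes. A MAK683 peak was at the promoter of 382 of the 415. Over all 19222 protein-coding genes 15387 had a MAK683 and 14221 a DMSO promoter peak. The promoters of genes assigned to shared strong DMSO peaks were not examined. Whether the open promoters and the lower ratio are particular to the genes of the members was therefore not tested.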

How the data were processed

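ATAC-seq peak lists of 1 DMSO and 1 MAK683 library were used. Per the labels and methods, the authors trimmed reads, aligned them to hg19 with Bowtie2 and called peaks with MACS2. Versions 2.1.0 and 2.2.7.1 are named in the sources, and the file headers give 2.1.1.20160309 with no control, a shift of -100 bp, an extension of 200 bp, 1 tag kept per position and a q cutoff of 0.05. Per the file headers, 16598348 (DMSO) and 18265284 (MAK683) tags remained after filtering, of 23901891 and 26692938. The deposited columns are the pileup signal at the summit in tags, the fold enrichment as a ratio, and the -log10 p-value and q-value. Each library was called on its own. Heights were divided by the tags kept and given in RPM.

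Peaks sharing at least 1 base were matched with Python 3.11.15, numpy 2.4.6, pandas 2.3.3 and pysam 0.24.0, and genes and sequence were taken from GENCODE release 44 lifted to GRCh37. All peaks on chromosomes 1 to 22, X and Y ended within the chromosome lengths of that build. Each gene had 1 main TSS, that of its Ensembl canonical transcript or else of its longest basic or other transcript. Other start sites of a gene were not counted. Repeats were not annotated. The matching, motif search and intervals were tested on simulated data. The members and the gene lists were chosen with earlier results of these data known. The named peaks were the 10 tallest, the 10 tallest within 1 kb of a protein-coding TSS with ties, the 5 groups with the most members, the 5 longest, the 10 genes with the most members and up to 3 per gene list. Members named beyond this rule (the remaining members of short lists, the RERE pair, the nearest and farthest from a MAK683 peak, MIR143 and the motif examples) were chosen after their values were seen. Shares have Wilson intervals, heights exact binomial intervals and medians order-statistic intervals at a level of 95%, all for counting error only. Alternatives covered the height limit, depth scaling, the overlap rule, the TSS window, the group gap and the sequence window. A few items are not reported here.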

Additional observations from a re-analysis of the deposited data

How the results depend on the processing

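The number of members depended on the limits. With the main rule it was 551 (2.26%). It was 77 (0.441%) at 21 tags (the first height above a limit raised by 0.25 RPM), 4059 (10.3%) at 0.75 RPM, 23 (0.162%) with heights scaled by all tags and 121 (0.643%) at 20 tags with no depth scaling. It was 409 (1.68%) with no MAK683 peak within 500 bp and 327 (1.34%) with none within 1 kb. Where a MAK683 peak counted only from a -log10 q of 5 upward, the number was 1785 (7.31%), and asking for no MAK683 summit within 150 bp gave 8776 (35.9%), a looser rule that also takes overlapping peaks. Adding X and Y gave 552. The TSS-proximal share of the members was 13.4% within 1 kb, 18.1% for protein-coding TSSs and 23.5% with no MAK683 peak within 1 kb. The same share was 59.5% in all shared strong peaks, and 36.9% and 32.1% in shared peaks weighted to the tags and the lengths of the members. Groups numbered 18 with gaps up to 0.25 Mb, 0 at 21 tags and 1 with no MAK683 peak within 1 kb. The median GC content was 46.0% over 400 bp and 46.2% over whole peaks. The share with an AP-1 match was 11.2% over 400 bp and 3.90% at 21 tags. The median log2 ratio near members was -0.40 within 1 Mb and -0.32 with no depth scaling. Among all 41 alternatives, 11 left the value inside its interval (counts: less than 1.5-fold away) and 30 moved it. Changes of sign were not looked for. A limit of 10 on the -log10 q of the members kept all 551, so it could not move a value. No paired analysis was possible because each treatment had 1 library.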
